A study of Mus musculus with 39 samples.

Results

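The comparison described here is PLX against no PLX in striatal microglia of adult male mice after prenatal MIA and an injection of saline. Its members were chosen by their labels: 3 MIA_PLX_SAL libraries (replicates 2, 3 and 4) against 4 MIA_CON_SAL libraries (replicates 1 to 4), 7 of the 39 libraries in all. Both groups share the prenatal MIA (maternal immune activation), the saline, an age of 8 to 10 weeks and the interval of 18 hours between injection and cell collection. They differ in the arm term alone, PLX or CON, where CON here stands for no PLX. The cells were gated as live, CD11b positive, CD45 low and P2RY12 positive before RNA was taken. The labels do not define PLX, its compound, dose or timing, and give no strain. Another pair of groups at saline and one after LPS are set beside it: CON_PLX_SAL against CON_CON_SAL (4 libraries each, no MIA, saline), and MIA_PLX_LPS against MIA_CON_LPS (6 libraries each, MIA, 4500 endotoxin units of lipopolysaccharide, LPS, per gram body weight).

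Microglia are the resident macrophages of the brain. They depend for survival on the receptor encoded by Csf1r, which binds CSF1 and interleukin 34. Some compounds whose names begin with PLX inhibit this receptor. Such compounds deplete microglia, and microglia return after the compound is withdrawn. Returned cells can arise from surviving microglia, and under some conditions macrophages from outside the brain enter, which express genes such as Apoe, Ms4a7 and Ccr1 more strongly than resident microglia do. The question the pair addresses is whether sorted microglia of MIA mice differ with PLX in the absence of an inflammatory challenge.

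Totals ran from 2640243 to 3520500 estimated counts per library in MIA_PLX_SAL and from 2190531 to 4099630 in MIA_CON_SAL, and mitochondrial ribosomal RNA took 11.5% to 13.7% and 12.2% to 13.1% of them. The remaining library labelled MIA_PLX_SAL, replicate 1, has a title that says to exclude it and was left out. It differed from MIA_CON_LPS replicate 6 by little more than counting error, with a chi-square per degree of freedom of 1.57 over 9788 genes, the lowest of 741 pairs, against 3.94 to 9.48 for pairs within the 7 libraries. Which of these 2 libraries carries the right label was not settled, so the values after LPS are given with and without MIA_CON_LPS replicate 6. The first principal component of the 7 held 24.9% of the variance and did not separate the groups: MIA_PLX_SAL replicate 2 and MIA_CON_SAL replicate 1 lay at the same end.

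Few genes differed with PLX. Of 11407 genes tested, 2 rose and 0 fell in MIA_PLX_SAL at an adjusted p under 0.05 (edgeR quasi-likelihood test with Benjamini-Hochberg adjustment, two-sided), which is 0.0175% of those tested. The 2 genes were Ccr1, which encodes a chemokine receptor of myeloid cells, and Rpl13, which encodes a protein of the large ribosomal subunit. An unadjusted p under 0.05 was reached by 745 genes, or 6.53%. The median log2 fold change over all genes was -0.01, and 5542 genes (48.6%) had a positive one. DESeq2 called 13 higher and 2 lower, Rpl13 among them (adjusted p 0.000375), and gave Ccr1 no adjusted p. Voom with quality weights called Rpl13 alone. Leaving out 1 library at a time gave 0 to 5 calls, and 0 calls without MIA_PLX_SAL replicate 2 or MIA_CON_SAL replicate 3.

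Levels are given as CPM, in which each library is scaled to the same total after TMM normalization. Ccr1 (ENSMUSG00000025804.5) stood at 19.6, 12.01 and 13.9 CPM in MIA_PLX_SAL, against 3.65, 5.71, 2.43 and 5.82 CPM in MIA_CON_SAL. Every PLX library was above every library without PLX. The mean was 15.2 ± 3.97 CPM with PLX (SD, n = 3) and 4.40 ± 1.65 CPM without (SD, n = 4). The log2 fold change was 1.81 ± 0.318 (SE), with a 95% interval of 1.15 to 2.47 and an edgeR adjusted p of 0.0473. Ccr1 remained called in 2 of the 7 fits that each left out 1 library, those without MIA_PLX_SAL replicate 3 and without MIA_CON_SAL replicate 4. It lost its call without MIA_PLX_SAL replicate 2 or 4 or MIA_CON_SAL replicate 1, 2 or 3. Over all 7 fits its log2 fold change was 1.57 to 1.99 and its adjusted p 0.0238 to 0.822.

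Rpl13 (ENSMUSG00000000740.12) stood at 529, 503 and 503 CPM in MIA_PLX_SAL, against 397, 334, 363 and 298 CPM in MIA_CON_SAL, again with no overlap. The log2 fold change was 0.55 ± 0.0932 (SE), with an interval of 0.36 to 0.75 and an edgeR adjusted p of 0.0473. With 1 library left out it was called in 1 of 7 fits, the one without MIA_CON_SAL replicate 1, and its log2 fold change was 0.48 to 0.62. Ribosomal protein genes have many near-identical processed copies in the mouse genome, so the division of reads among copies is uncertain for each of them.

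**Figure D1:**
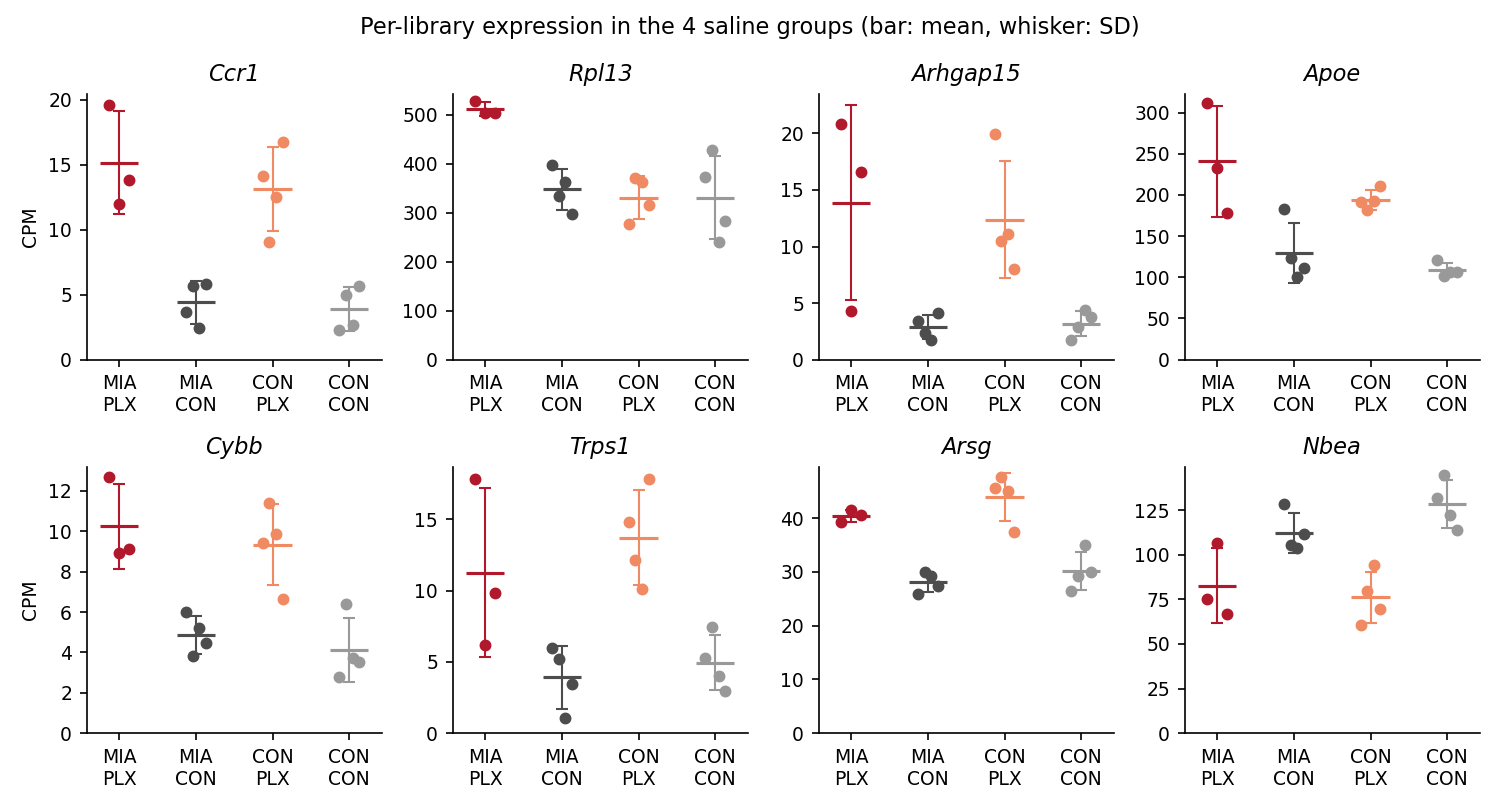
CPM (y axis, from 0) of 8 genes in each saline library, with the group mean as a bar and the SD as a whisker. Groups run MIA with PLX, MIA without PLX, CON with PLX and CON without PLX. Ccr1 lies at 12.01 CPM or more in all MIA libraries with PLX and at 5.82 CPM or less in those without, and Rpl13 is higher in the MIA group with PLX than in the other 3 groups.

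The other genes that the naming rule reached did not pass the edgeR test. On the higher side they included Rpl10 (0.44 ± 0.0962) and Rpl37 (0.53 ± 0.121), both encoding ribosomal proteins, and Arhgap15, which encodes a GTPase-activating protein for Rac (2.23 ± 0.458), each with an edgeR adjusted p of 0.285 (log2, SE). DESeq2 called Rpl10 (adjusted p 0.0229) and Rpl37 (0.0344) and gave Arhgap15 no adjusted p. Arhgap15 stood at 20.8, 4.26 and 16.6 CPM in MIA_PLX_SAL, against 3.39, 2.38, 1.74 and 4.11 CPM in MIA_CON_SAL. Its groups do not overlap, but MIA_PLX_SAL replicate 3 lies just above the highest library without PLX. Without that replicate Arhgap15 was called, at 2.65 and an adjusted p of 0.000807.

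On the lower side the genes of smallest p were Nlk, which encodes a kinase of Wnt signalling (-0.43 ± 0.104), Pnn (-0.43 ± 0.108) and Luc7l2 (-0.34 ± 0.0914), which encode splicing-associated proteins, Cep250, for a centrosomal protein (-0.54 ± 0.138), Tiam1, for an exchange factor of Rac (-0.85 ± 0.219), and Apobr, for a lipoprotein receptor of macrophages (-0.58 ± 0.151). Their edgeR adjusted p values were 0.290 to 0.300. Apobr was at 32.6, 33.7 and 34.1 CPM in MIA_PLX_SAL, against 46.7, 62.3, 43.4 and 48.6 CPM in MIA_CON_SAL. For each of the 6 the PLX libraries lay below all libraries without PLX. Over all genes tested, 413 (3.62%) had the PLX libraries below all others and 470 (4.12%) had them above.

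The receptors and markers of microglia gave narrow intervals. Csf1r stood at 5270.1, 4648 and 5217 CPM in MIA_PLX_SAL, against 5072, 5517, 4982 and 4651 CPM in MIA_CON_SAL, with overlap. Its log2 fold change was -0.01, with a 95% interval of -0.16 to 0.15. P2ry12, the purinergic receptor gene of the sorting gate, was at 2971, 2816 and 3094 CPM with PLX and at 3119, 2899, 2996 and 2908 CPM without, a log2 fold change of -0.01 (interval -0.16 to 0.13). The other gate genes, Itgam for CD11b and Ptprc for CD45, had -0.16 (-0.33 to 0.01) and -0.08 (-0.29 to 0.13). Sorting on the proteins of the gate genes can limit the differences that could be seen in them.

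Among further identity genes, Tmem119, a surface marker of microglia, was at 0.15 (-0.02 to 0.32), the fractalkine receptor gene Cx3cr1 at 0.08 (-0.09 to 0.24) and Sall1, for a transcription factor of microglial identity, at 0.16 (-0.02 to 0.33). Selplg, for the ligand of P-selectin, had 0.27 ± 0.0807, Trem2, for a lipid-sensing receptor, 0.28 ± 0.11, and Olfml3 0.19 ± 0.0803 (log2, SE). Of 17 homeostatic microglia genes 0 passed the test and 14 had a positive log2 fold change, with a median of 0.12. All genes tested had a median of -0.01, and 48.6% of them were positive. The mean log2 CPM of the 17 genes was 10.42, 10.33 and 10.39 in MIA_PLX_SAL. In MIA_CON_SAL it was 10.31, 10.30, 10.24 and 10.18, with no overlap. As linear folds, the intervals ran from 0.894 to 1.11 for Csf1r and from 0.896 to 1.10 for P2ry12.

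**Figure D2:**
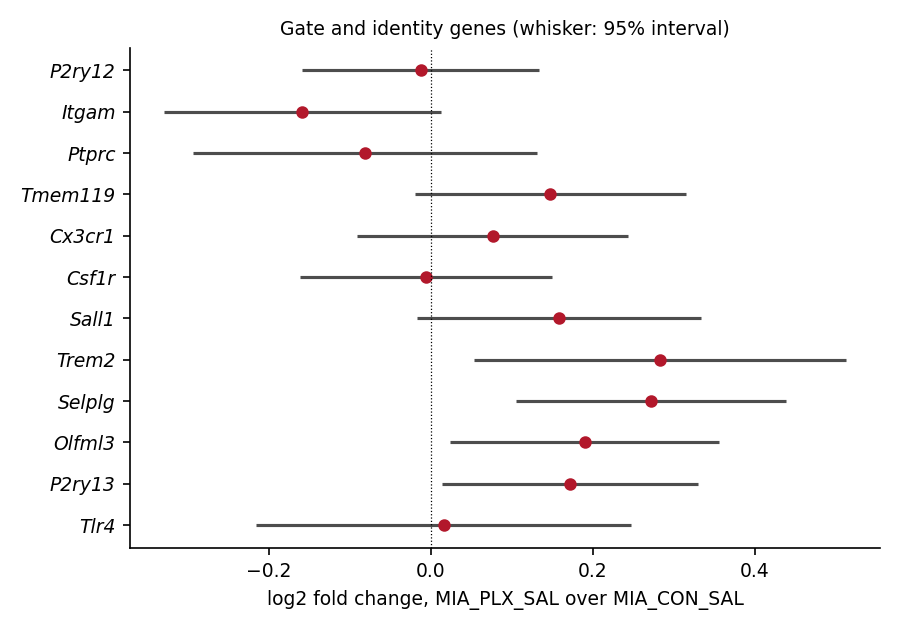
Log2 fold change of MIA_PLX_SAL over MIA_CON_SAL (x axis) for genes of the sorting gate and of microglial identity, and Tlr4, with 95% intervals as whiskers. P2ry12 and Csf1r sit at -0.01, and all points lie between -0.16 and 0.28.

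Genes of the Csf1r pathway, its ligands, relatives and signalling proteins, gave small values. Of 13 tested 0 passed, 2 had a positive log2 fold change and the median was -0.05. With 1 library left out at a time the median was -0.10 to 0.01, above 0 without MIA_PLX_SAL replicate 3 or MIA_CON_SAL replicate 2. Tyrobp, which encodes the adaptor that couples Trem2 and other receptors to kinases, had the largest difference at 0.39 ± 0.123 (654, 543 and 597 CPM in MIA_PLX_SAL, against 477, 533, 470 and 342 CPM in MIA_CON_SAL). Spi1, for the myeloid transcription factor PU.1, had 0.20 ± 0.119 and Pik3cd, for a catalytic subunit of a lipid kinase, -0.15 ± 0.107. Microglial identity transcription factors (0 of 14 called, 11 positive, median 0.08) and TGF-beta signalling, on which microglial identity depends (0 of 11 called, 7 positive, median 0.04), gave similarly small values. With 1 library left out their medians were 0.04 to 0.14 and -0.01 to 0.06, the last below 0 without MIA_PLX_SAL replicate 4.

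Cytosolic ribosomal protein genes lay higher with PLX as a group. All 35 genes listed were tested, 35 had a positive log2 fold change and the median was 0.35, with single genes at 0.05 to 0.67. One of them, Rpl13, passed, where 0.0175% of all genes tested did. For 21 of the 35 the PLX libraries lay above all others, where this held for 4.12% of all genes tested. The mean log2 CPM of the list was 7.63, 7.44 and 7.48 in MIA_PLX_SAL, against 7.31, 7.30, 7.21 and 6.86 in MIA_CON_SAL. The 2 groups did not overlap, and MIA_CON_SAL replicate 4 was the lowest of the 7. That library also had the highest sum of astrocyte markers, 809 CPM, where the other libraries without PLX had 270 to 307 CPM. Over the 5 astrocyte markers tested, though, its mean log2 CPM was 4.30, the lowest without PLX, where the others had 4.51 to 4.78. The part of astrocyte transcripts in the ribosomal values was not tested. Without that replicate 34 of 35 were positive and the median was 0.27, and without MIA_PLX_SAL replicate 2 all 35 were positive with a median of 0.27. DESeq2 called 7 of the 35, where it called 0.131% of all genes. Over all genes 48.6% were positive.

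The pair without MIA gave other values for the same genes. CON_PLX_SAL against CON_CON_SAL, which shares no library with the MIA pair, had 6 of the 35 ribosomal protein genes positive and a median of -0.07, where 49.3% of all genes tested were positive. The list level was 7.04 ± 0.141 in CON_PLX_SAL and 7.08 ± 0.343 in CON_CON_SAL (log2 CPM, SD, n = 4 each), so the spread within CON_CON_SAL was about as large as the difference in the MIA pair. Rpl13 differed by -0.00 ± 0.196 in the CON pair. The difference between the MIA and the CON value of Rpl13 was 0.55 (95% interval 0.05 to 1.06) and was not called (edgeR adjusted p 0.892, unadjusted p 0.0341).

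**Figure D3:**
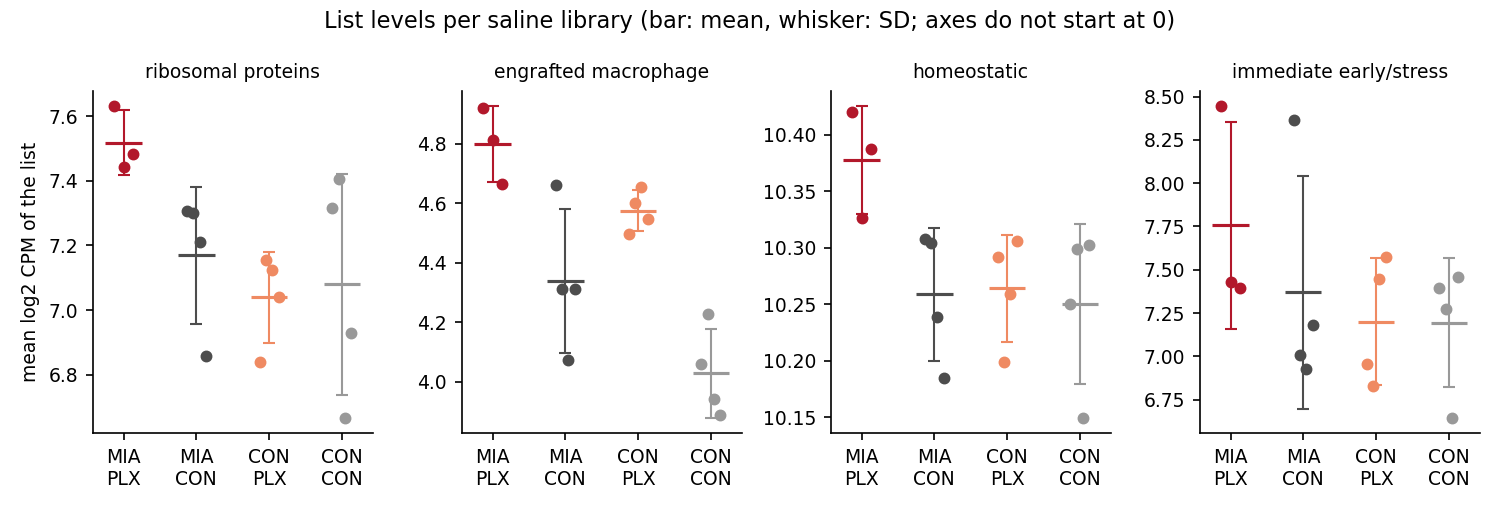
Mean log2 CPM (y axis, not from 0) of 4 gene lists in each saline library, with group mean and SD. Ribosomal protein genes stand at 7.44 to 7.63 in the MIA libraries with PLX and at 6.86 to 7.31 in those without, and the immediate early list is high in 1 library of each MIA group.

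Other housekeeping groups had small medians, with no calls by edgeR. Of 16 glycolysis genes 13 were positive (median 0.17, and 0.09 without MIA_CON_SAL replicate 1), among them Gapdh, for glyceraldehyde-3-phosphate dehydrogenase, at 472, 482 and 489 CPM in MIA_PLX_SAL, against 365, 352, 414 and 342 CPM in MIA_CON_SAL (0.38 ± 0.0873, edgeR adjusted p 0.285). DESeq2 called Gapdh, at an adjusted p of 0.0229. The mean log2 CPM of the glycolysis list was 5.83, 5.88 and 5.82 in MIA_PLX_SAL. In MIA_CON_SAL it was 5.61, 5.78, 5.69 and 5.70, with no overlap. Of 20 nuclear genes of oxidative phosphorylation 13 were positive (median 0.11), with Uqcrq, for a subunit of complex III, at 0.68 ± 0.209. Mitochondrially encoded genes went the other way in 12 of 15 (median -0.11). The lowest was mt-Atp8, for a subunit of ATP synthase, at 4.83, 6.59 and 5.75 CPM in MIA_PLX_SAL, against 10.7, 52.3, 34.7 and 26.7 CPM in MIA_CON_SAL (-2.40 ± 0.633, edgeR adjusted p 0.591). Its groups do not overlap, and the libraries without PLX spread widely. Of the 7 fits that each left out 1 library, edgeR called mt-Atp8 in 1, without MIA_CON_SAL replicate 1 (-2.72, adjusted p 1.1e-05). It was also called by edgeR with no count filter (adjusted p 0.00826). The neighbouring gene mt-Atp6 had -0.30 ± 0.397.

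Genes that distinguish macrophages engrafted in the brain had mostly positive values. Of 16 listed 12 were tested, 1 passed (Ccr1), 9 were positive and the median was 0.38, or 0.30 to 0.45 with 1 library left out. Ms4a7, Clec12a, Pf4 and Emilin2 fell below the count filter and have no test here. The list was drawn up with earlier results of these data known. Over all genes 0.0175% passed and 48.6% were positive. In the CON pair 9 of 11 were positive, 2 were called higher and the median was 0.83, where 49.3% of all genes were positive and 0.0674% called higher. After LPS the MIA pair had 6 of 13 positive and a median of -0.03, where 45.2% of all genes were positive. Without MIA_CON_LPS replicate 6 that median was -0.15. Cybb, for the catalytic subunit of the phagocyte NADPH oxidase, stood at 12.7, 8.91 and 9.13 CPM in MIA_PLX_SAL, against 5.996, 3.80, 5.21 and 4.45 CPM in MIA_CON_SAL (1.05 ± 0.313, edgeR adjusted p 0.411), with no overlap. Apoe, for the lipid carrier apolipoprotein E, was at 312, 233 and 178 CPM in MIA_PLX_SAL, against 183, 123, 99.998 and 112 CPM in MIA_CON_SAL (0.89 ± 0.286, adjusted p 0.654 by edgeR). Its highest library without PLX lies above its lowest with PLX.

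In the same list Tmem176a, for an ion channel of myeloid cells, had 0.54 ± 0.158, Mrc1, for the mannose receptor, 0.46 ± 0.161 and Lyz2, for lysozyme, 0.41 ± 0.125, while Cd74, the class II invariant chain, had -0.23 ± 0.211. The other negative members of the list were H2-Aa (-0.70 ± 1.26) and Ms4a6c (-0.05 ± 0.303). None of these genes passed. The level of the list was 4.92, 4.81 and 4.67 log2 CPM in MIA_PLX_SAL, against 4.66, 4.31, 4.07 and 4.31 in MIA_CON_SAL, with no overlap, though MIA_CON_SAL replicate 1 lay next to the lowest PLX library. Markers of border-associated macrophages share Mrc1, Ms4a7 and Pf4 with this list. These markers summed to 55.5 to 80.3 CPM with PLX and to 38.2 to 59.9 CPM without. Monocyte markers summed to 8.75 to 11.8 CPM and 2.85 to 11.8 CPM, and Ly6c2, a defining monocyte gene, was at 0 in all 7 libraries. The part of these cells in the values was not tested. In such bulk samples fewer cells of a type and less RNA per cell cannot be told apart.

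The CON pair at saline gave a second, separate view of PLX. There 8 genes rose (0.0674%) and 2 fell (0.0169%) of 11864 tested, 0.0843% in all, by edgeR with Benjamini-Hochberg adjustment: Apoe, Arhgap15, AI662270, Sult1a1, Ccr1, Aoah, Vcam1 and Trps1 were higher with PLX, and Nbea and Amotl1 lower. These 10 were taken up after their values were seen. In the MIA pair 8 of the 10 were tested. Of the 8, 7 had the same sign, where 51.0% of the 11294 genes tested in both pairs had it, and 6 had an unadjusted p under 0.05, where 6.53% of all genes tested had one. Of the 8, 1, Ccr1, was called, which is 1 of the 2 genes called in MIA and 1 of the 10 called in CON.

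Ccr1 was at 14.1, 9.04, 12.5 and 16.8 CPM in CON_PLX_SAL, against 2.27, 4.98, 2.69 and 5.67 CPM in CON_CON_SAL, so that all 7 saline libraries with PLX lay above all 8 without. Its log2 fold change there was 1.73 ± 0.294 (edgeR adjusted p 0.00517). Arhgap15 had 1.99 ± 0.324 in the CON pair beside 2.23 in the MIA pair, Apoe 0.83 ± 0.084 beside 0.89, and Trps1, for a GATA-type transcription factor, 1.47 ± 0.274 beside 1.52 ± 0.443. Vcam1, for an adhesion molecule, had 1.12 ± 0.206 in the CON pair and 0.69 ± 0.279 in the MIA pair. Nbea, for a scaffold protein of membrane traffic, had -0.75 ± 0.115 and -0.45 ± 0.139.

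AI662270 and Aoah, for an enzyme that detoxifies lipopolysaccharide, fell below the count filter in the MIA pair. AI662270 stood at 14.2, 3.49 and 10.1 CPM in MIA_PLX_SAL, against 1.04, 0.951, 1.74 and 3.08 CPM in MIA_CON_SAL, and Aoah at 5.43, 3.10 and 5.07 CPM, against 2.87, 0.951, 0.347 and 1.71 CPM. Neither overlaps between groups. Sult1a1, for a sulfotransferase, and Amotl1, for a junction protein, did not follow: their log2 fold changes were -0.21 ± 0.159 and -0.05 ± 0.17 in the MIA pair, and 0.88 ± 0.149 and -0.81 ± 0.157 in the CON pair.

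**Figure D4:**
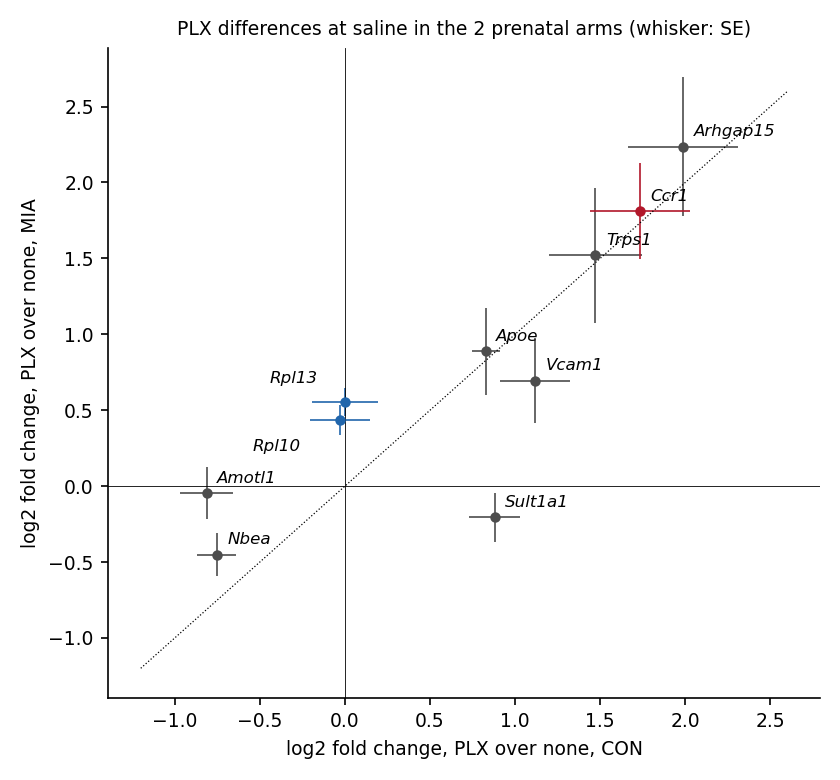
Log2 fold change of PLX over no PLX at saline after MIA (y axis) and without MIA (x axis), with SE as whiskers and the line of equal values dotted. Ccr1, Arhgap15, Trps1 and Apoe lie near the line, Sult1a1 and Amotl1 away from it, and the ribosomal protein genes Rpl13 and Rpl10 near 0 on the x axis only.

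The difference of the PLX effects between MIA and CON at saline was fitted over the 15 saline libraries. Of 12239 genes 0 passed by edgeR (0%), 652 had an unadjusted p under 0.05 and the smallest adjusted p was 0.252, while DESeq2 called 3 and voom 0. The difference, MIA minus CON, was 0.08 for Ccr1 (95% interval -0.86 to 1.02), 0.26 for Arhgap15 (-1.07 to 1.59) and 0.06 for Apoe (-0.54 to 0.66). For Ccr1 that interval spans 0.552 to 2.03 times the effect seen without MIA. Sult1a1 had -1.09 (-1.53 to -0.64), with the smallest adjusted p, and Amotl1 0.77 (0.30 to 1.23), neither called.

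The 7 saline libraries with PLX were also set against the 8 without, as the mean of the MIA and CON differences over 15 libraries. This fit was chosen after the data were seen and shares its libraries with both pairs. Of 12239 genes 10 rose (0.0817%) and 1 fell (0.00817%) with PLX, 0.0899% in all, by edgeR with Benjamini-Hochberg adjustment. Ccr1 rose by 1.78 ± 0.222 (log2, SE, adjusted p 5.1e-05), the uncharacterised gene AI662270 by 2.46 ± 0.337, Arhgap15 by 2.11 ± 0.307, Aoah by 2.11 ± 0.373 and Trps1 by 1.498 ± 0.269. Cybb rose by 1.14 ± 0.211, Apoe by 0.86 ± 0.138 and Mrc1 by 0.77 ± 0.133. Arsg, which encodes a lysosomal sulfatase, rose by 0.54 ± 0.0953 and Ly6e by 0.29 ± 0.0578. Nbea fell by 0.60 with an SE of 0.103.

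Arsg stood at 39.2, 41.4 and 40.6 CPM in MIA_PLX_SAL, against 25.8, 30.0, 29.2 and 27.4 CPM in MIA_CON_SAL, and at 45.7, 47.6, 45.0 and 37.4 CPM in CON_PLX_SAL, against 26.5, 29.1, 35.02 and 30.0 CPM in CON_CON_SAL. All 7 libraries with PLX lay above all 8 without. Arsg, like Ccr1, was called in this fit of the same libraries, so the separation is no further support. The share of all genes with such a separation was not counted. In the MIA pair alone Arsg was not called (edgeR adjusted p 0.373). Rpl13 was not called in this fit (0.28 ± 0.117, edgeR adjusted p 0.770).

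Genes of inflammation and stress varied by library. Of 9 chemokine genes 0 passed and 9 were positive, with a median of 0.32. Ccl4, which attracts monocytes and T cells, was at 112, 27.5 and 42.6 CPM in MIA_PLX_SAL, against 62.3, 15.2, 11.5 and 24.3 CPM in MIA_CON_SAL (1.05 ± 0.776), and Ccl3 had 0.95 ± 0.588. Il1b, the precursor of interleukin 1 beta, was at 140, 19.8 and 67.6 CPM with PLX, against 127, 16.6, 18.1 and 55.1 CPM without (0.44 ± 0.955). MIA_PLX_SAL replicate 2 and MIA_CON_SAL replicate 1 were the high library of their groups for all 3 genes. Without MIA_PLX_SAL replicate 2 the chemokine median was 0.12, without MIA_CON_SAL replicate 3 it was 0.21 and without MIA_CON_SAL replicate 4 it was 0.49.

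The same 2 libraries were high in immediate early genes and genes of dissociation stress, at 8.45 with 7.43 and 7.39 log2 CPM for the other PLX libraries, and at 8.37 with 7.01, 6.92 and 7.18 for the other libraries without PLX. Of these 18 genes 0 passed, 16 were positive and the median was 0.36. It was -0.17 without MIA_PLX_SAL replicate 2 and 0.77 without MIA_CON_SAL replicate 1, and it was 0.22 and 0.19 without MIA_CON_SAL replicate 2 or 3. Hspa1b, for an inducible heat shock protein, had 0.66 ± 0.159 with no overlap. NF-kB targets (0 of 20 called, 15 positive, median 0.24, against -0.10 without MIA_PLX_SAL replicate 2 and 0.41 without MIA_CON_SAL replicate 1) included Tnf at -0.02 (interval -0.79 to 0.75), and genes of LPS sensing (0 of 15, 10 positive, median 0.17, and 0.05 to 0.16 with 1 library left out, lowest without MIA_PLX_SAL replicate 2) included the receptor gene Tlr4 at 0.02 (-0.22 to 0.25) and its co-receptor gene Cd14 at 0.45 ± 0.136. The part of dissociation in these values was not tested.

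Of 21 interferon-stimulated genes 0 were called and 11 were positive, with a median of 0.00. The median was -0.17 without MIA_PLX_SAL replicate 4, 0.18 without MIA_CON_SAL replicate 4 and 0.63 with the library marked for exclusion. Ifi204, for a DNA sensor, had 0.65 ± 0.253 and Oasl2, for a protein of antiviral defence, -0.86 ± 0.313. Oasl2 was at 6.34, 4.65 and 6.09 CPM in MIA_PLX_SAL, against 8.08, 8.08, 11.8 and 13.7 CPM in MIA_CON_SAL, with no overlap and an edgeR adjusted p of 0.603. With the library marked for exclusion Oasl2 had 0.93, and in the CON pair it had 1.004 ± 0.298.

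Genes of antigen presentation did not pass either. Of 14 genes for MHC class I and antigen processing 8 were positive (median 0.06, and -0.03 without MIA_CON_SAL replicate 3), with B2m, the class I light chain, at 0.31 ± 0.0809 and no overlap. Of 5 for MHC class II 3 were positive (median 0.10, against -0.34 without MIA_PLX_SAL replicate 3, -0.08 without MIA_PLX_SAL replicate 4 and -0.0038 without MIA_CON_SAL replicate 2), with H2-DMa, which loads peptides, at 0.47 ± 0.126 and also no overlap.

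Genes of disease-associated microglia (0 of 13 called, 12 positive, median 0.19, and 0.35 without MIA_CON_SAL replicate 1) included Apoe, Trem2 and Tyrobp above and Cd9, for a tetraspanin, at 0.33 ± 0.104. Of 20 lysosomal genes 0 were called and 18 were positive, with a median of 0.14. For 6 of them the PLX libraries lay above all others. Over all genes tested this held for 4.12%, and 48.6% were positive. Among the 6 were the cathepsin genes Ctss (0.28 ± 0.0763) and Ctsb (0.22 ± 0.0816) and Cd68, for a macrophage lysosomal glycoprotein (0.24 ± 0.0863). Complement and phagocytic receptors (0 of 17 called, 12 positive, median 0.10, and 0.03 without MIA_CON_SAL replicate 2) had C1qb, a chain of the complement initiator C1q, at 0.31 ± 0.1. No gene passed among 14 cholesterol, 13 unfolded protein response, 10 glucocorticoid-responsive, 10 cell cycle and 7 purinergic genes, whose medians were 0.06, 0.14, 0.19, 0.04 and 0.00. With 1 library left out these medians were 0.02 to 0.08, 0.02 to 0.20, -0.02 to 0.39, -0.03 to 0.11 and -0.01 to 0.06. Without MIA_PLX_SAL replicate 2 the glucocorticoid and purinergic medians were below 0, and without MIA_PLX_SAL replicate 4 or MIA_CON_SAL replicate 4 the cell cycle median was.

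**Figure D5:**
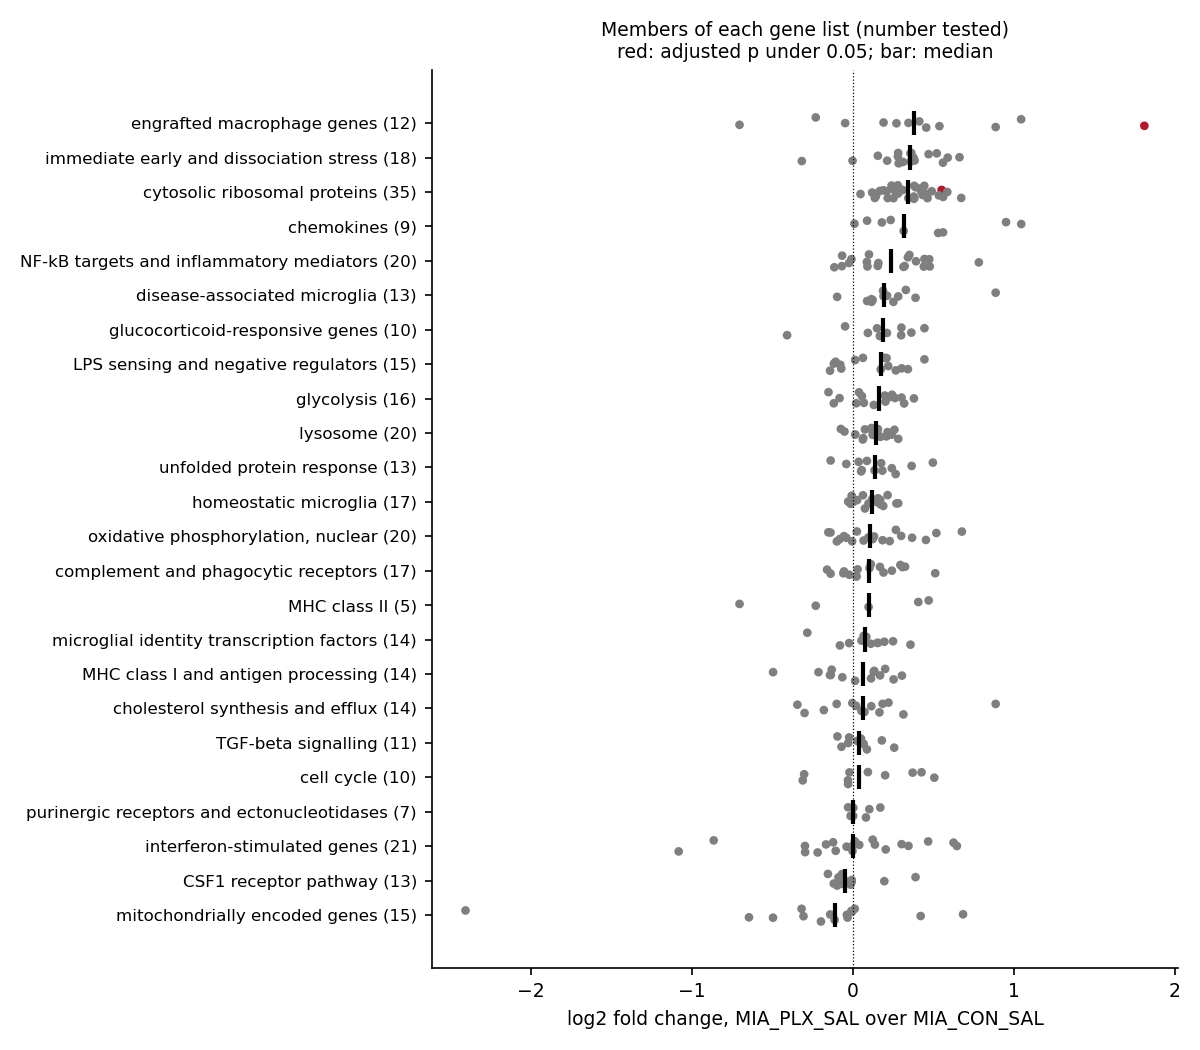
Log2 fold change of MIA_PLX_SAL over MIA_CON_SAL (x axis) for each tested member of the 24 lists by role, with the number tested in brackets and the median as a bar. Ccr1 and Rpl13 are the 2 red points, and the members of the ribosomal protein list all lie right of 0.

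Transcripts of cell types outside the gate were present. Astrocyte markers summed to 152 to 326 CPM in MIA_PLX_SAL, against 270 to 307 CPM in 3 MIA_CON_SAL libraries and 809 CPM in replicate 4. The mean log2 CPM of the 5 astrocyte markers tested was 3.86, 4.81 and 3.62 in MIA_PLX_SAL. In MIA_CON_SAL it was 4.51, 4.78, 4.52 and 4.30, so replicate 4 was not high across the tested markers. Neuronal markers summed to 28.1 to 58.1 CPM and 31.8 to 65.7 CPM, and oligodendrocyte markers to 74.0 to 124 CPM and 77.4 to 120 CPM. Lymphocyte markers summed to at most 0.338 CPM with PLX and 0.476 CPM without, and Cd3g, Ms4a1, Nkg7, Trbc2 and Gzma were at 0 in all 7. Of the neutrophil markers Ly6g, Mmp8 and Retnlg were at 0 in all 7, and the sums were 0.387 to 5.41 CPM with PLX and 0 to 7.82 CPM without. No marker of these types that was tested passed.

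After LPS the PLX pair of MIA mice gave 0 of 10524 genes (0%) by edgeR, with 507 at an unadjusted p under 0.05, and 0 of 10621 with 612 when MIA_CON_LPS replicate 6 was left out. Ccr1 had 1.65 ± 0.663 there (95% interval 0.24 to 3.06, edgeR adjusted p 0.969), beside 1.81 at saline, and 1.83 ± 0.730 without replicate 6. Rpl13 had -0.03 ± 0.239, and -0.07 ± 0.254 without replicate 6. The 35 ribosomal protein genes had 20 positive and a median of 0.02, where 45.2% of all genes tested were positive, and without replicate 6 they had 13 positive and a median of -0.04, where 46.1% were. Arhgap15 had 0.65 ± 0.484 and Apoe 0.35 ± 0.347, and without replicate 6 they had 0.83 ± 0.520 and 0.43 ± 0.372. The difference of the PLX effects, saline minus LPS, was called for 0 of 12471 genes (0%), with 313 at an unadjusted p under 0.05 and 0 calls by DESeq2 and by voom. That difference was 0.17 for Ccr1 (-1.76 to 2.09) and 0.58 for Rpl13 (-0.10 to 1.27). Without replicate 6 it was called for 0 of 12433 genes (0%), with 400 at an unadjusted p under 0.05, and was -0.0046 for Ccr1 (-2.86 to 2.85) and 0.62 for Rpl13 (-0.08 to 1.32).

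The precision set what could be seen. The median SE of a log2 fold change was 0.41 for 2340 genes under 3 log2 CPM, 0.23 for 4644 genes at 3 to 5, 0.14 for 3180 genes at 5 to 7 and 0.10 for 1243 genes above. For a single gene, an exact rank-sum test of 3 against 4 libraries cannot go below a two-sided p of 0.0571, which 35 relabelings set. Nothing in the labels ties a replicate to an animal of its own, and p-values here rest on the scatter among libraries, which may be technical.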

How the data were processed

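RNA from sorted striatal microglia was amplified linearly with a kit that keeps no strand information and does not deplete ribosomal RNA, per the labels' protocols; overlapping antisense genes can therefore not be told apart. The authors deposited estimated counts for 55487 genes in 39 libraries, and 14.7% of the nonzero values are not whole. STAR, RSEM and DESeq2 are listed as tools without version, per the submitters' processing notes. No genome build is given in the sources used here. Symbols came from GENCODE M21, in which 55141 identifiers matched, and genes without a symbol held 0.0132% of counts.

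Values were rounded to whole numbers and only the 7 libraries were fitted, by edgeR 4.0.16 quasi-likelihood (robust, TMM, R 4.3.3), after filterByExpr (minimum count 10, minimum total 15) removed 12856 genes. Tests were two-sided with Benjamini-Hochberg adjustment over every gene in the fit, and called under 0.05 with no fold limit. The common dispersion was 0.0215. Intervals are 95%, and SE is the change divided by the root of the F statistic. CPM and list levels (mean log2 CPM, prior count 2) use TMM factors over the 15 saline libraries. Differences between pairs were fitted over 15 saline or 19 MIA libraries.

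Of the genes called with a mean of at least 3 log2 CPM, up to 12 were named per direction; where fewer were called, genes of smallest p filled each direction up to 6. Up to 3 members of smallest p were named from each of 24 lists, and 13 identity and cytokine genes always. Predicted genes were skipped, and some genes this rule reached are not reported here. The members, the 33 lists and the tests were chosen with earlier results of these data known. Genes outside the rule, taken up after their values were seen, are the 10 called in the CON pair, and Lyz2, Afmid, Rn7sk, Saa3, Lcn2, Arsg, Mrc1 and Ly6e. Alternatives were RLE size factors, DESeq2 1.42.0, limma 3.58.1 voom with quality weights, other count filters, removal of mitochondrial ribosomal RNA, the library marked for exclusion, a replicate block, fits of more libraries and leaving out each library. The fit was also run on simulated data, whose outcome is not reported here and is not used as support.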

Additional observations from a re-analysis of the deposited data

Results flagged for a closer look

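In 98 genes and 30 lists examined in the 4 MIA_CON_SAL libraries, 5 genes and 2 lists had a library far from the other 3. Chance alone puts about 1 in 20 groups past that limit. MIA_CON_SAL replicate 4 was low in Ly96, which encodes the LPS co-receptor MD-2, at 13.4 CPM with the others at 21.9 to 22.6 CPM. It was also low in Tyms, for thymidylate synthase, at 3.42 CPM with the others at 7.99 to 8.56 CPM. The glucocorticoid-responsive list was low in it, at 6.26 log2 CPM with the others at 6.62 to 6.66, and the cholesterol list was high, at 4.47 with the others at 4.31 to 4.32.

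MIA_CON_SAL replicate 2 was high in Rn7sk, the noncoding RNA that holds back transcription elongation, at 922 CPM with the others at 323 to 373 CPM. MIA_CON_SAL replicate 1 was low in Ly6e, for a lymphocyte antigen family protein, at 504 CPM with the others at 560.1 to 564 CPM. Saa3, an acute-phase gene that rises after LPS, was at 2.87 CPM in replicate 1 and at 0 in the other 3.

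The library left out of MIA_PLX_SAL held signal for Saa3, at 60.4 CPM without TMM scaling. The highest of the 15 saline libraries used had 8.71, and MIA_CON_LPS replicate 6 had 56.0. Lcn2, another gene of the acute phase, was at 23.3 in the library left out and at most 12.9 in the saline libraries used.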

How the results depend on the processing

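The count of 2 calls stayed at 2 with RLE size factors, without mitochondrial ribosomal RNA, with the library marked for exclusion (Rpl13 and Afmid) and in a fit of the 15 saline libraries (Afmid and Ccr1). It was 15 with DESeq2 (13 higher, 2 lower), 47 with no count filter (42 and 5, tested over more genes of low count), 1 with voom and 1 at a minimum count of 30 (Rpl13 in both), 0 in a fit of all 37 libraries, and 0 to 5 with 1 library left out. A replicate block gave 6 (5 and 1: Rpl13, Apoe, Ftl1, Ubb, Rplp1 and, lower, mt-Atp8). Ccr1 was not called with the block (edgeR adjusted p 0.113). Same-numbered libraries correlated at -0.09, 0.11 and 0.13 in their deviations. MIA_PLX_SAL replicates 3 and 4 matched best with their own number, and replicate 2 with MIA_CON_SAL replicate 1 (0.27). The labels do not say what a number shares, so the numbers were not taken to pair libraries. For the difference between MIA and CON, the count of 0 became 3 with DESeq2, 13 with no count filter and 0 to 3 with 1 library left out, without CON_CON_SAL replicate 3 (3) or MIA_CON_SAL replicate 1 (1), and the block gave 0. The saline minus LPS count was 0 in all alternatives run. The cause of these shifts was not tested.

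Of 1601 values for 97 genes under the alternatives, 1530 kept their direction and side of the threshold. All but 2 of these genes were uncalled in the main fit, so this total says little on how stable a call is. The 2 called genes were less stable: Rpl13 was called in 9 of 17 alternatives and Ccr1 in 6 of 16. DESeq2 values without an adjusted p, that of Ccr1 among them, are not in these totals. Signs turned, for genes that none of these fits called, with the excluded library for Oasl2 (0.93), Cd74 (0.090), Fkbp5 (0.38), Cx3cr1 (-0.014), Tnf (0.46), Sult1a1 (0.12) and Amotl1 (0.012), with the block for P2ry12 (0.0063) and Tnf (0.0018), and with voom for Csf1r (0.0012) and Tlr4 (-0.00019). With 1 library left out they ran from -0.34 to 0.83 for H2-Ab1, -0.093 to 0.21 for P2ry6, -0.045 to 0.026 for P2ry12, -0.044 to 0.054 for Csf1r, -0.22 to 0.25 for Tnf, -0.35 to 1.32 for Il1b, -0.095 to 0.077 for Tlr4 and -0.15 to 0.060 for Amotl1. Depth limits what is seen below about 3 log2 CPM, where the median SE was 0.41; intervals cover the spread between these libraries only.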

Other observations

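Afmid, for an enzyme of tryptophan breakdown, was at 6.94, 5.04 and 9.13 CPM in MIA_PLX_SAL, against 0.261, 1.43, 1.74 and 1.03 CPM in MIA_CON_SAL, and did not pass (2.71 ± 0.513, edgeR adjusted p 0.0865). It was called with the library marked for exclusion, in the fit of 15 saline libraries and with no count filter. In the CON pair it had -0.08 ± 0.37. Rn7sk was at 111, 88.3 and 121 CPM in MIA_PLX_SAL, against 323, 922, 329 and 373 CPM in MIA_CON_SAL (-2.18 ± 0.506, adjusted p 0.531 by edgeR). DESeq2 called Rn7sk (-2.19, adjusted p 0.00219), and without MIA_CON_SAL replicate 2, its highest library, edgeR called it (-1.68, adjusted p 7.5e-08). With each other library left out its edgeR adjusted p was 0.412 to 0.995. Rn7sk was at 315, 137, 180 and 170 CPM in CON_PLX_SAL, against 131, 125, 134 and 111 CPM in CON_CON_SAL. For both genes the MIA groups do not overlap. The difference between the MIA and CON values was 2.80 for Afmid (95% interval 1.51 to 4.08) and -2.86 for Rn7sk (-4.07 to -1.65), neither called (edgeR adjusted p 0.368 and 0.520).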
